A study of Drosophila melanogaster with 24 samples.

Results

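The insect cuticle is built from chitin fibres and structural proteins, and the largest group of these proteins carries the Rebers-Riddiford chitin-binding domain. In Drosophila the genes of this group are named Cpr with the cytological position of the gene, Lcp for the larval cuticle proteins, and Ccp84 for a cluster at 84A. Their transcripts are mostly known from the epidermis of embryos, larvae and pupae, where a new cuticle is laid down before each moult, and in the adult endocuticle is still added in the first days after eclosion. Some members are known outside the body wall cuticle: Cpr66D and Cpr72Ec are, with drosocrystallin (Crys) and retinin, the known protein components of the corneal lens of the fly eye.

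The genes described here were all rows of the deposited expression tables whose name is Cpr followed by a number, Ccp84 or Lcp. This gave 94 of 17637 genes, 70 named Cpr, 7 named Ccp84 and 17 named Lcp. RNA had been sequenced from pooled heads of mated w[1118] females, a strain that lacks eye pigment through its mutation in white, at 5 days of age (young) and 55 days of age (old), in 12 h of light and 12 h of dark. Both ages had the same genotype and no treatment, and old flies were those that had survived to day 55. Heads were taken every 4 h at 6 times of day, given as zeitgeber time (ZT, hours after lights on), with 2 biological replicates each. There were thus 12 libraries per age and 24 in all, and the 2 libraries of a time point stand in the tables at hours 0 to 20 (first cycle) and 24 to 44 (second cycle). Per the paper, heads were collected over a single daily cycle, and the replicates were only formatted as 2 cycles. First and second cycle thus name sets of columns here, not successive days.

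Levels are in FPKM as deposited, which is the number of sequenced fragments of a gene per length of its transcript and per depth of the library. Being per length, they can be compared between genes. Changes between ages and daily rhythms were tested on log2(FPKM + 1) after a scaling between the 2 tables, with 1 factor per library. The head markers were present: ninaE, Arr1 and Arr2 of the photoreceptors summed to 14444 to 17515 FPKM in young and 12508 to 18954 FPKM in old heads, with 2 of the 3 lower in old heads. All 3 neuron markers tested were lower in old heads, as were 3 of 4 fat body markers (the yolk protein genes) and 1 of 3 muscle markers, and both hemocyte markers were higher. The 8 eggshell genes that would mark ovary tissue summed to at most 1.203 FPKM in any library. Of the 5 epidermal and cuticle markers looked for, 3 were matched, 2 were high enough to be tested (knk and grh), and neither passed the age test. The third, the chitin synthase gene kkv, was too low to be tested. Its medians were 0.289 FPKM in young and 0.115 FPKM in old heads, with overlap. Without the scaling between the tables, none of the photoreceptor and 2 of the neuron markers were called lower, and knk and grh were both called higher. The part of these shifts in the cuticle results was not tested. In RNA from whole heads, fewer cells of a type and less RNA per cell cannot be told apart.

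Most cuticle protein genes were silent or nearly silent in adult heads. Of the 94 genes, 14 were at 0 in all 24 libraries, 66 never reached 1 FPKM, and 24 were above 0 in every library. Lcp1Psi and Lcp65APsi are annotated as pseudogenes, and Lcp65APsi is among the 14. The 14 also hold near-identical copies whose zeros are uncertain, as given below (Lcp65Ab1 and Lcp65Ab2, Cpr65Ax1 and Cpr65Ax2, Cpr67Fa1 and Cpr67Fa2). A gene was taken as expressed at an age when its median over the 12 libraries was at least 1 FPKM. By this rule 19 genes were expressed in young heads and 15 in old heads, and all 15 were among the 19. They were 18 Cpr genes and Lcp65Ac, the one Lcp gene expressed, and none of the Ccp84 genes was among them. Summed over the family, young libraries held 559, 708 and 870 FPKM (lowest, median and highest of 12) and old libraries 288, 369 and 532 FPKM, so that no old library reached the level of a young one. Without the most abundant member, Cpr65Au, the sums were 275, 367 and 615 FPKM in young and 114, 205 and 373 FPKM in old libraries, and the ages overlapped.

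**Figure D1:**
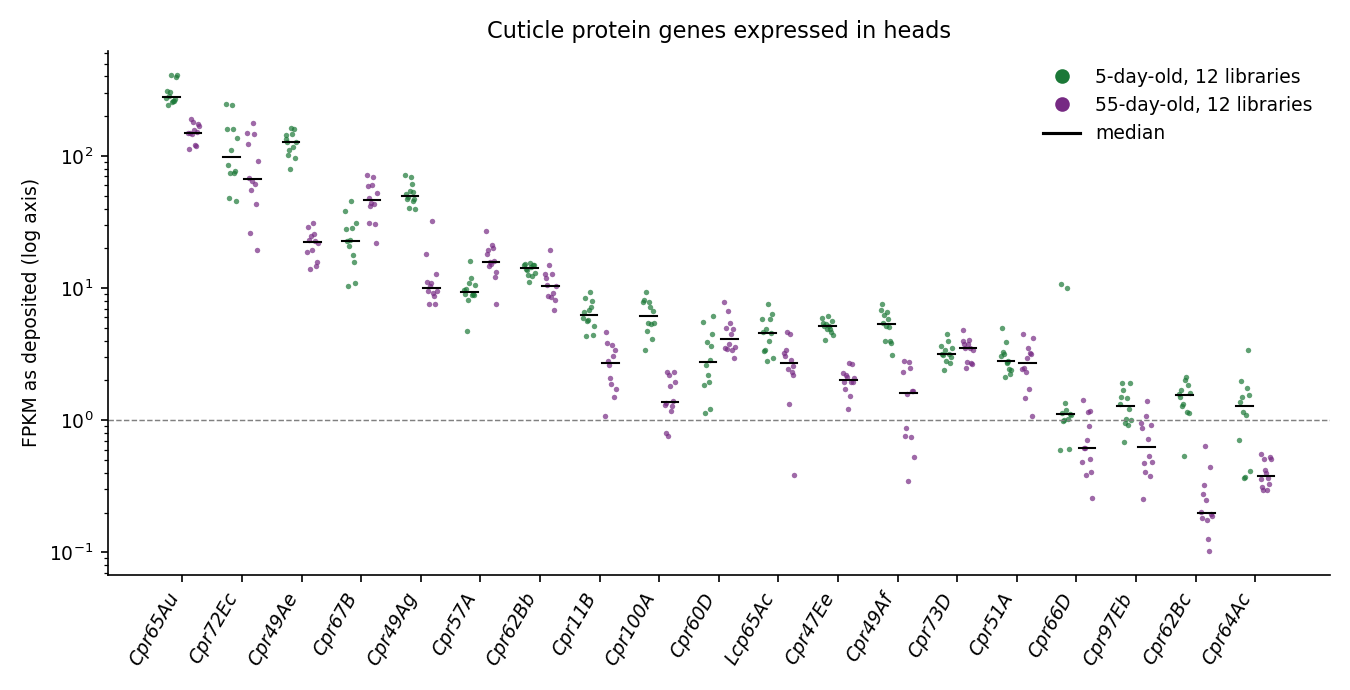
FPKM on a log axis of the 19 cuticle protein genes whose median reached 1 FPKM (dashed line) in young or old heads; each point is 1 library (12 per age) and the black line is the median. Cpr65Au lies highest, with medians of 280 and 150 FPKM, and the 4 genes at the right end fall below 1 FPKM in old heads.

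The 4 genes expressed in young and lost in old heads were Cpr66D, Cpr97Eb, Cpr62Bc and Cpr64Ac, and no gene was gained. Across the 9255 genes expressed in young heads 1.47% were lost by the same rule, and 3.77% of the 9476 genes expressed in old heads were gained. These shares cover genes of every level, while the 4 lost members had young medians near the threshold. No share was counted for genes of like level. Cpr62Bc, at 3L from 1840281 to 1842084 in the Ensembl annotation of BDGP6 (dm6), had 0.541, 1.55 and 2.12 FPKM in young and 0.102, 0.199 and 0.639 FPKM in old libraries (lowest, median and highest), and only its lowest young library lay within the old range. Cpr64Ac, at 3L from 4211964 to 4212915, had 0.366, 1.28 and 3.39 FPKM in young and 0.295, 0.380 and 0.556 FPKM in old libraries, and its low young values were those of ZT20 and one of the pair at ZT0.

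Cpr97Eb, at 3R from 27089704 to 27091130, had 0.690, 1.28 and 1.91 FPKM in young and 0.253, 0.630 and 1.41 FPKM in old libraries, with wide overlap. Cpr66D, at 3L from 8640439 to 8643584, a lens protein gene, had 0.600, 1.11 and 10.8 FPKM in young and 0.260, 0.620 and 1.42 FPKM in old libraries. All 4 genes remained above 0 in each of the 12 old libraries, so that they were lost only in the sense of the 1 FPKM threshold. With a threshold of 0.5 FPKM, Cpr62Bc and Cpr64Ac were still lost, Cpr66D and Cpr97Eb were not, Lcp65Ag2 and Cpr47Ef were lost in addition, and Cpr49Ac was gained (medians of 0.0613 and 0.554 FPKM). With 2 FPKM the lost genes were Cpr49Af and Cpr100A. Leaving out any 1 library, or either cycle, again gave 4 lost genes.

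Over all members, the expressed ones included, detection was counted as above 0 in at least 6 of the 12 libraries of an age. By this count 47 members were detected in young and 47 in old heads, 40 of them at both ages, with 7 lost and 7 gained. By the same count, 2.37% of all genes detected in young heads were lost and 4% of those detected in old heads were gained. These shares too cover genes of every level, and none was counted for genes as low as these members. The losses were Ccp84Ab, Cpr56F, Cpr50Cb, Lcp65Ag3, Cpr35B, Cpr64Ab and Cpr66Cb, and the gains were Cpr78E, Cpr50Ca, Cpr65Av, Cpr65Aw, Cpr47Eg, Cpr92A and Cpr11A. The values of these 14 genes were whole multiples of what 1 fragment is worth in a library, and they show how few fragments most of these changes rest on. Cpr35B, counted as lost, had 7 fragments in all young and 9 in all old libraries, and Cpr65Aw, counted as gained, had 8 and 8.

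Ccp84Ab stood out from these. It was above 0 in 10 of 12 young libraries, with a median of 0.112 FPKM and 18 fragments in all, and was listed at 0 in all 12 old libraries. Its cluster neighbours Ccp84Aa and Ccp84Ag had 3 and 1 fragments in young heads and were listed at 0 in every old library, and the other 4 Ccp84 genes were at 0 throughout. In the opposite direction, Cpr11A was above 0 in 4 young and 10 old libraries, with 6 and 30 fragments.

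**Figure D2:**
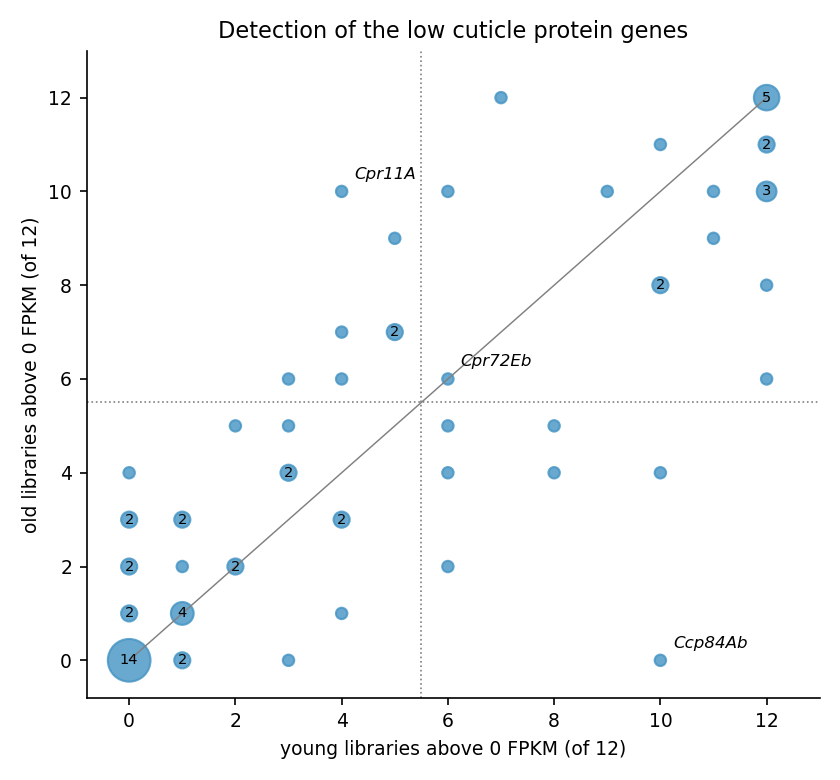
Number of young (x axis) and old (y axis) libraries, of 12 each, in which each of the 75 cuticle protein genes with a median under 1 FPKM at both ages was above 0; larger circles with a number hold several genes. There were 24 genes above 0 in more young libraries and 25 in more old libraries, and 14 were at 0 everywhere.

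The age comparison asked how the level of each gene differed between young and old heads whatever the time of day. It was tested with limma in the 9808 genes whose mean exceeded 1 FPKM in young or old heads, and a gene was called at a Benjamini-Hochberg adjusted p of at most 0.01. Of the 20 cuticle protein genes tested, 12 were lower in old heads, 2 were higher and 6 were not called. Over all genes tested 20.9% were lower and 20.5% higher. Of the 20, 5 (Cpr66D, Cpr97Eb, Cpr72Ea, Cpr62Bc and Cpr64Ac) passed the filter only through their mean in young heads, 3 of them among the 12 lower, and none passed only through old heads, so that the filter itself favoured members that are higher in young heads. The median log2 change, old minus young, was -0.78 over the 20 members and 0.03 over all genes tested. On the deposited scale without scaling, the all-gene median was 0.22 and the calls over all genes were 1064 lower and 4264 higher instead of 2046 and 2011, and of the members 11 were lower and 2 higher. The one lost call was Cpr62Bb.

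For 7 members every old library lay below every young library after scaling, and for none did every old library lie above. Of all genes tested 7.08% were separated with old below young and 4.65% with old above young. The 7 were Cpr49Ae, Cpr49Ag, Cpr49Af, Cpr100A, Cpr65Au, Cpr47Ee and Cpr11B. In the deposited values 6 of them were also separated, and Cpr11B overlapped by its highest old and lowest young libraries (4.69 and 4.30 FPKM).

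**Figure D3:**
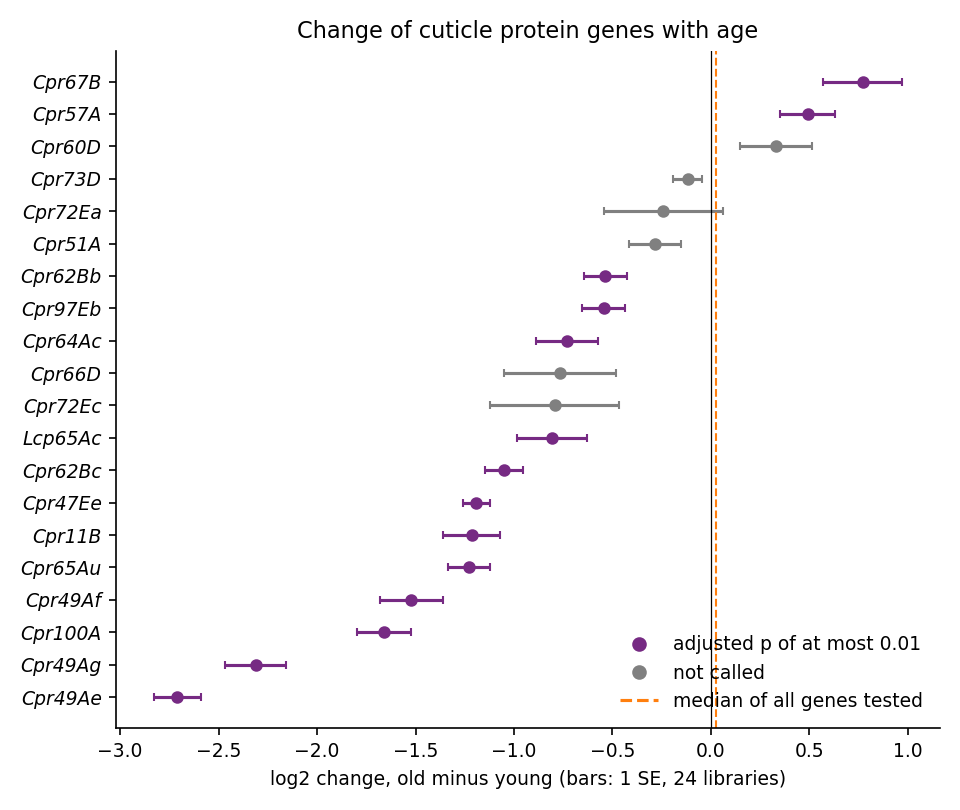
Log2 change with age (old minus young, scaled, on log2(FPKM + 1)) of the 20 cuticle protein genes tested; bars are 1 standard error from limma over 24 libraries, and the dashed line is the median of all genes tested (0.03). Cpr49Ae and Cpr49Ag lie farthest to the left at -2.71 and -2.31, and Cpr67B and Cpr57A are the 2 genes called higher.

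On log2(FPKM + 1), the largest falls among the members tested were those of Cpr49Ae and Cpr49Ag. They lie in the 49A cluster, 8 Cpr49A genes within 38.5 kb of 2R. The added 1 makes the changes of low genes smaller. By the ratio of deposited means, young over old, Cpr62Bc (5.75) was near Cpr49Ae (5.80) and above Cpr49Ag (4.26). Cpr49Ae (12402216 to 12405108) had 79.5, 128 and 163 FPKM in young and 14.01, 22.3 and 31.3 FPKM in old libraries, a 6.542-fold fall in scaled FPKM + 1 (log2 change -2.71 ± 0.12, SE; limma adjusted p = 3.19e-15). Cpr49Ag (12407793 to 12408523) had 39.6, 50.0 and 72.1 FPKM in young and 7.54, 9.97 and 32.2 FPKM in old libraries, a 4.96-fold fall in scaled FPKM + 1 (log2 change -2.31 ± 0.15, adjusted p = 4.14e-12). Cpr49Af, between them, had 3.11, 5.31 and 7.53 FPKM in young and 0.348, 1.62 and 2.83 FPKM in old libraries (log2 change -1.52 ± 0.16, adjusted p = 1.55e-08). These 3 neighbours were the members of the cluster tested, and all 3 fell.

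The other 5 genes of the 49A cluster were too low for this test. When all 15736 genes above 0 anywhere were fitted with no filter, 9 of 60 low members were called lower in old heads and 1 higher, beside 13.9% and 13.3% of all genes, low and expressed, in that fit. The one higher was Cpr49Ac, which had 0, 0.0613 and 0.208 FPKM in young and 0.164, 0.554 and 1.13 FPKM in old libraries, the opposite direction to that of Cpr49Ae, Cpr49Af and Cpr49Ag in the same cluster (log2 change 0.49 ± 0.08, adjusted p = 9.51e-06). Cpr49Ah, next to Cpr49Ag, was among the 9 lower ones, with medians of 0.402 FPKM in young and 0.0901 FPKM in old libraries. The remaining 8 were Ccp84Ab, Cpr92F, Cpr47Ea, Cpr47Ef, Lcp65Ag2, Cpr64Ad, Cpr76Bc and Cpr76Bd. These low genes were named after their values had been seen. The fit without a filter called 2193 genes lower and 2092 higher, and the fit of the 9808 filtered genes called 2046 and 2011. The shares of 13.9% and 13.3% are therefore not those of low genes, for which no share was counted.

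**Figure D4:**
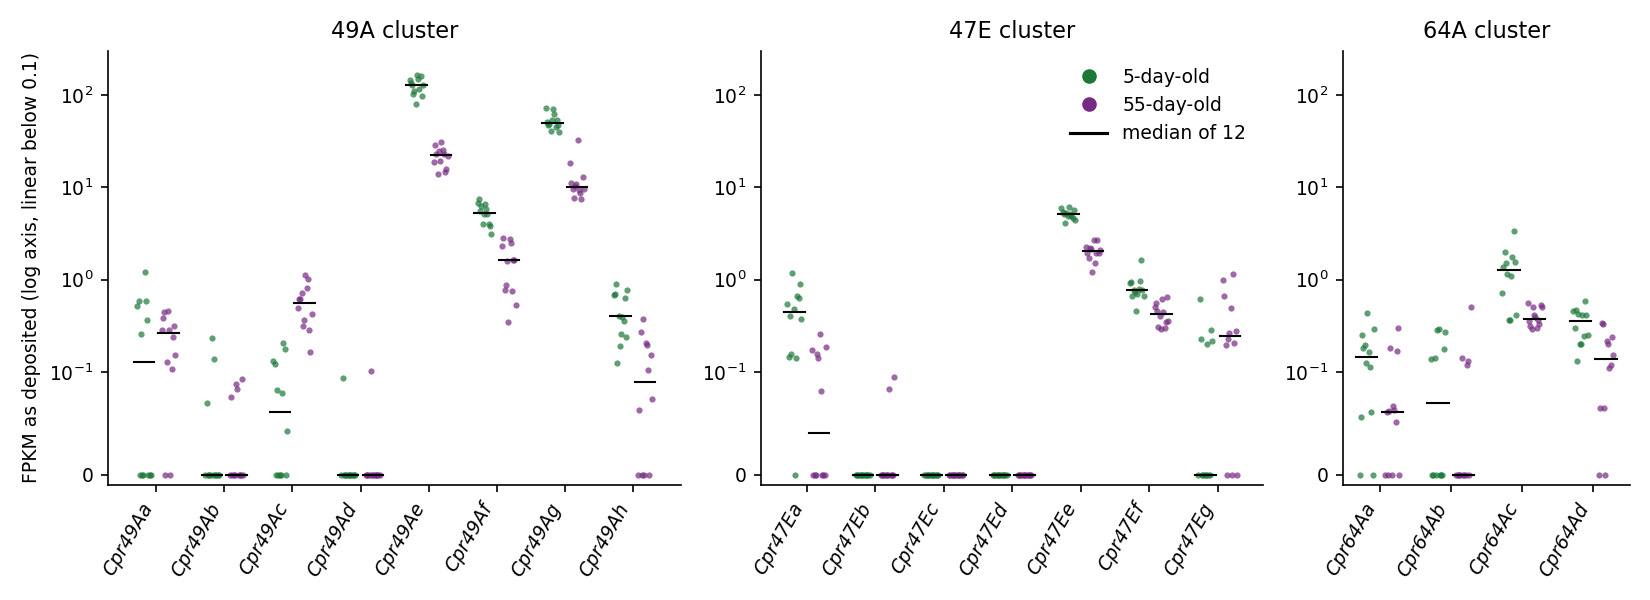
FPKM of every gene of the 49A, 47E and 64A clusters in order along the chromosome (log axis, linear below 0.1 FPKM); each point is 1 library and the black line is the median of 12. In 49A the genes Cpr49Ae, Cpr49Af and Cpr49Ag fell with age, while Cpr49Ac had medians of 0.0613 FPKM in young and 0.554 FPKM in old heads.

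By position 72 members lay in 14 clusters, in which the next member was at most 20 kb away, and 22 lay alone. In the 65A cluster, 18 Lcp65A and Cpr65A genes within 31.2 kb of 3L, only Cpr65Au and Lcp65Ac were expressed, both were lower in old heads, and 6 genes were at 0 throughout. Cpr65Au, the most abundant cuticle protein transcript of the head, had 243, 280 and 413 FPKM in young and 112, 150 and 189 FPKM in old libraries (2.34-fold lower in scaled FPKM + 1, log2 change -1.23 ± 0.11, adjusted p = 6.57e-10). Lcp65Ac had 2.82, 4.61 and 7.55 FPKM in young and 0.386, 2.71 and 4.67 FPKM in old libraries, with overlap (log2 change -0.81 ± 0.18). Near-identical copies in this cluster (Lcp65Ab1 and Lcp65Ab2, Cpr65Ax1 and Cpr65Ax2, the Lcp65Ag genes) and Cpr67Fa1 and Cpr67Fa2 elsewhere are uncertain, because fragments that match several copies may have been split or lost in the counting.

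In the 47E cluster Cpr47Ee was the gene tested, with 4.06, 5.14 and 6.12 FPKM in young and 1.22, 2.02 and 2.72 FPKM in old libraries and no overlap (log2 change -1.19 ± 0.07, adjusted p = 3.93e-13). In the 62B cluster both genes tested were lower: Cpr62Bb, with medians of 14.2 FPKM in young and 10.46 FPKM in old heads (log2 change -0.54 ± 0.11), and the lost gene Cpr62Bc (log2 change -1.05 ± 0.10). The lost genes Cpr64Ac and Cpr97Eb had log2 changes of -0.73 ± 0.16 and -0.54 ± 0.11. Since lost genes were picked for a median that was lower in old heads, their changes are given as a description. Cpr64Ac overlaps CG43367, a gene on the other strand that had 18.9 to 22.4 FPKM in young and 18.1 to 23.3 FPKM in old libraries. Outside the clusters, Cpr100A had 3.41, 6.10 and 9.28 FPKM in young and 0.760, 1.37 and 2.33 FPKM in old libraries (log2 change -1.66 ± 0.13). It was 3.16-fold lower in scaled FPKM + 1, and its ratio of deposited means, young over old, was 4.05. Cpr11B, also outside the clusters, had medians of 6.23 and 2.70 FPKM (log2 change -1.21 ± 0.15).

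The 2 genes called higher among the 20 members tested, Cpr67B and Cpr57A, both lay outside the clusters. Cpr67B, at 3L from 9404797 to 9406174, had 10.3, 22.8 and 45.5 FPKM in young and 21.8, 46.2 and 71.2 FPKM in old libraries (log2 change 0.77 ± 0.20, adjusted p = 0.00217). Its ages overlapped over all times of day, but at each of the 6 times both old libraries were above both young ones in the deposited values. After scaling this held at 5 of the 6 times, and at ZT16 an old library (20.6) lay below a young one (22.7). Cpr57A, at 2R from 20548368 to 20550117, had 4.73, 9.36 and 16.1 FPKM in young and 7.64, 15.9 and 27.0 FPKM in old libraries (log2 change 0.49 ± 0.14, adjusted p = 0.00441). Cpr57A overlaps Obp57d, an odorant-binding protein gene, on the same strand, and Obp57d had medians of 0.841 FPKM in young and 1.33 FPKM in old heads. Without the first cycle neither of the 2 genes was called (Cpr67B, log2 change 0.71, and Cpr57A, 0.20), and without the second cycle Cpr67B was not called (0.84).

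The members not called were Cpr72Ec, Cpr72Ea, Cpr66D, Cpr60D, Cpr73D and Cpr51A. Cpr60D, among the 10 most abundant members, had medians of 2.74 FPKM in young and 4.13 FPKM in old heads (log2 change 0.33 ± 0.18, adjusted p = 0.133). Cpr51A and Cpr73D overlap highly expressed genes on the other strand, CG30197 at 108 to 447 FPKM and Ogdh at 150 to 258 FPKM over all libraries. The library kit marks strand, but whether strand was used in the counting is not given in the sources used here.

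Of the lens protein genes, Cpr72Ec, at 3L from 16365894 to 16367340, had 45.6, 98.3 and 247 FPKM in young and 19.5, 66.4 and 179 FPKM in old libraries (log2 change -0.79 ± 0.33, adjusted p = 0.0439, not called). Much of that spread was time of day, and with time of day as a factor in the model the same change was called (adjusted p = 5.83e-05). Cpr66D, with a log2 change of -0.77 ± 0.28 (adjusted p = 0.0255), was also called with the time factor (adjusted p = 0.00282). The other lens genes were looked at after these values had been seen. Retinin had 580, 820 and 1021 FPKM in young and 78.2, 130 and 251 FPKM in old libraries, with no overlap (log2 change -2.78 ± 0.14, adjusted p = 2.75e-14). Crys, too low to be tested, had 0.669, 0.794 and 1.38 FPKM in young and 0, 0.0452 and 0.260 FPKM in old libraries, again with no overlap.

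Genes of related lists were counted beside the family. Of 44 other structural cuticle genes (Twdl, obst, Gasp, Vajk and others), 10 could be tested, 5 were lower in old heads and 1 was higher, with a median log2 change of -0.60. The 5 lower were Acp1, an adult cuticle protein gene whose median went from 1.51 FPKM to 0, and the 4 Vajk genes, listed in the tables under CG names, and the higher one was TwdlT. All 5 lower genes passed the filter only through young heads, so that their count and the median of the list are shaped by the filter. Of 17 tanning and pigmentation genes tested, 10 were lower, among them Pu (GTP cyclohydrolase), Ddc (dopa decarboxylase), ebony (e) and black (b), and 2 were higher. Of 18 genes of chitin synthesis, assembly and turnover, 4 were lower, among them the chitin deacetylase genes serp, verm and Cda5, and 6 were higher, of which Idgf1, Idgf2, Idgf3 and Idgf4 code for chitinase-like proteins. Of 15 ecdysone response regulators, 8 were lower and 1 was higher. The median log2 changes of the last 3 lists were -0.45, 0.13 and -0.26. These counts stand beside 20.9% lower and 20.5% higher of all genes tested, and they moved with the scaling. Without it the lower and higher genes were 9 and 3 for tanning, 3 and 10 for chitin (serp no longer called), and 4 and 6 for the ecdysone list, and remained 5 and 1 for the other structural genes.

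The rhythm comparison asked which members varied with a 24 h period at each age and whether that changed with age. It used scaled values, while FPKM by time of day is given as deposited. The log2 scaling factors varied over the day. In young heads they were -0.02 and -0.02 at ZT0 and -0.23 and -0.20 at ZT12, and in old heads 0.24 and 0.21 at ZT0 and 0.02 and 0.02 at ZT12. In the median of the genes used for scaling, deposited FPKM was thus higher at ZT0 than at ZT12 at both ages. Among the 9612 genes whose median reached 1 FPKM in young or old heads, 15% were rhythmic in young and 14.3% in old heads at an adjusted p of at most 0.05. Of the 19 members tested, 4 were rhythmic in young heads (Cpr72Ec, Cpr67B, Cpr65Au and Cpr64Ac) and 4 in old heads (Cpr72Ec, Cpr67B, Cpr65Au and Cpr73D), with 3 in both. Either share is near that of all genes. A change of rhythm with age was called for 0.333% of all genes tested and for 1 member, Cpr64Ac. Cpr64Ac and the other lost genes, Cpr66D, Cpr97Eb and Cpr62Bc, passed the filter of this test only through their median in young heads. No member passed it only through old heads.

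Cpr72Ec peaked at lights on at both ages. At ZT0 its libraries had 247 and 244 FPKM in young and 149 and 179 FPKM in old heads, and its mean fell to 60.1 FPKM at ZT16 in young and to 34.8 FPKM at ZT12 in old heads. The fitted log2 amplitude was 0.95 in young heads (limma adjusted p = 0.000251) and 1.15 in old heads (adjusted p = 3.41e-05), and the difference in rhythm between ages was not called (adjusted p = 0.967). Its neighbours Cpr72Ea and Cpr72Eb, within 4.74 kb of 3L with Cpr72Ec, were also highest at ZT0 at both ages. Cpr72Ea had 5.56 and 3.56 FPKM at ZT0 in young heads and 0.0524 FPKM in both libraries at ZT12, and Cpr72Eb had 2.67 and 2.27 FPKM at ZT0 and was listed at 0 at ZT8, ZT12 and ZT16. In old heads the ZT0 libraries had 1.91 and 2.14 FPKM of Cpr72Ea and 1.17 and 1.89 FPKM of Cpr72Eb. Both genes were below the filter of the rhythm test. In the fit without a filter they were called rhythmic at both ages, Cpr72Ea with adjusted p of 0.000521 in young and 0.0135 in old heads and Cpr72Eb with 0.00202 and 0.0337.

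Cpr67B had its highest mean at ZT0 and its lowest at ZT12 at both ages. Its ZT0 libraries had 38.2 and 45.5 FPKM in young and 71.2 and 60.2 FPKM in old heads, and its ZT12 libraries 10.3 and 15.6 FPKM in young and 30.9 and 30.6 FPKM in old heads. The amplitudes were 0.69 (adjusted p = 0.00041) and 0.54 (adjusted p = 0.00465), with no call for a difference (adjusted p = 0.967).

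By its mean, Cpr65Au was highest at ZT20 in young heads, with 413 and 412 FPKM, and lowest at ZT8. In old heads its deposited means at ZT20 (173.9 FPKM) and ZT12 (170.7 FPKM) were close, and the lowest was at ZT4. The scaled old libraries had 166 and 155 at ZT20 and 186 and 150 at ZT12. The fitted peaks of Cpr65Au were at 17.5 h in young and 16.0 h in old heads. Its amplitudes were 0.29 in both ages (adjusted p = 0.032 and 0.0317). The call in young heads was lost without any one of 5 young libraries (first cycle ZT8 and ZT20, second cycle ZT4, ZT16 and ZT20), with adjusted p from 0.0637 to 0.0937. That in old heads was lost without any one of 5 old libraries (first cycle ZT4 and ZT20, second cycle ZT4, ZT8 and ZT16), with adjusted p from 0.0566 to 0.119. Cpr73D had an amplitude of 0.21 in old heads, with 4.83 and 3.75 FPKM at ZT0 and 2.49 and 2.66 FPKM at ZT16 (adjusted p = 0.034). Its call was lost without any one of 8 old libraries (first cycle ZT0, ZT4, ZT8, ZT16 and ZT20, second cycle ZT4, ZT12 and ZT16), with adjusted p from 0.0504 to 0.0832.

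Cpr64Ac was rhythmic in young heads and had a smaller amplitude in old heads. In young heads its libraries had 0.715 and 0.370 FPKM at ZT0, 1.39 and 1.10 FPKM at ZT4, and 1.99 and 1.75 FPKM at ZT8. They had 1.51 and 3.39 FPKM at ZT12, 1.16 and 1.55 FPKM at ZT16, and 0.366 and 0.412 FPKM at ZT20. All 12 old libraries lay between 0.295 and 0.556 FPKM. The amplitude was 0.69 in young heads, with a fitted peak at 10.3 h after lights on (adjusted p = 1.05e-05), and 0.09 in old heads (adjusted p = 0.619), and the rhythm differed between ages (adjusted p = 0.00363). The difference was called without any one library. It was not called when either cycle was left out, when no gene in the series was, nor with time of day as a factor with 6 levels (adjusted p = 0.0768).

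Cpr66D showed 1 high time of day in young heads. At ZT4 its young libraries had 10.8 and 10.01 FPKM, and the other 10 young libraries had 0.600 to 1.34 FPKM. In old heads the ZT4 libraries had 1.42 and 0.909 FPKM and the other 10 had 0.260 to 1.17 FPKM. The old mean was also highest at ZT4, 1.85 times that of the other times, beside 10.3 times in young heads. The 24 h terms did not call it (adjusted p = 0.0726 in young heads), but with time of day as a factor it varied in young heads (adjusted p = 3.57e-06). The interaction of that factor with age, an alternative added after these values had been seen, was also called (adjusted p = 0.00434), as it was for 0.458% of all genes tested. Among the 9255 genes expressed in young heads, Cpr66D was the 1 gene for which both libraries of a time point were at least 5 times above all 10 others, a criterion chosen after its values had been seen. No such gene was found in old heads.

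**Figure D5:**
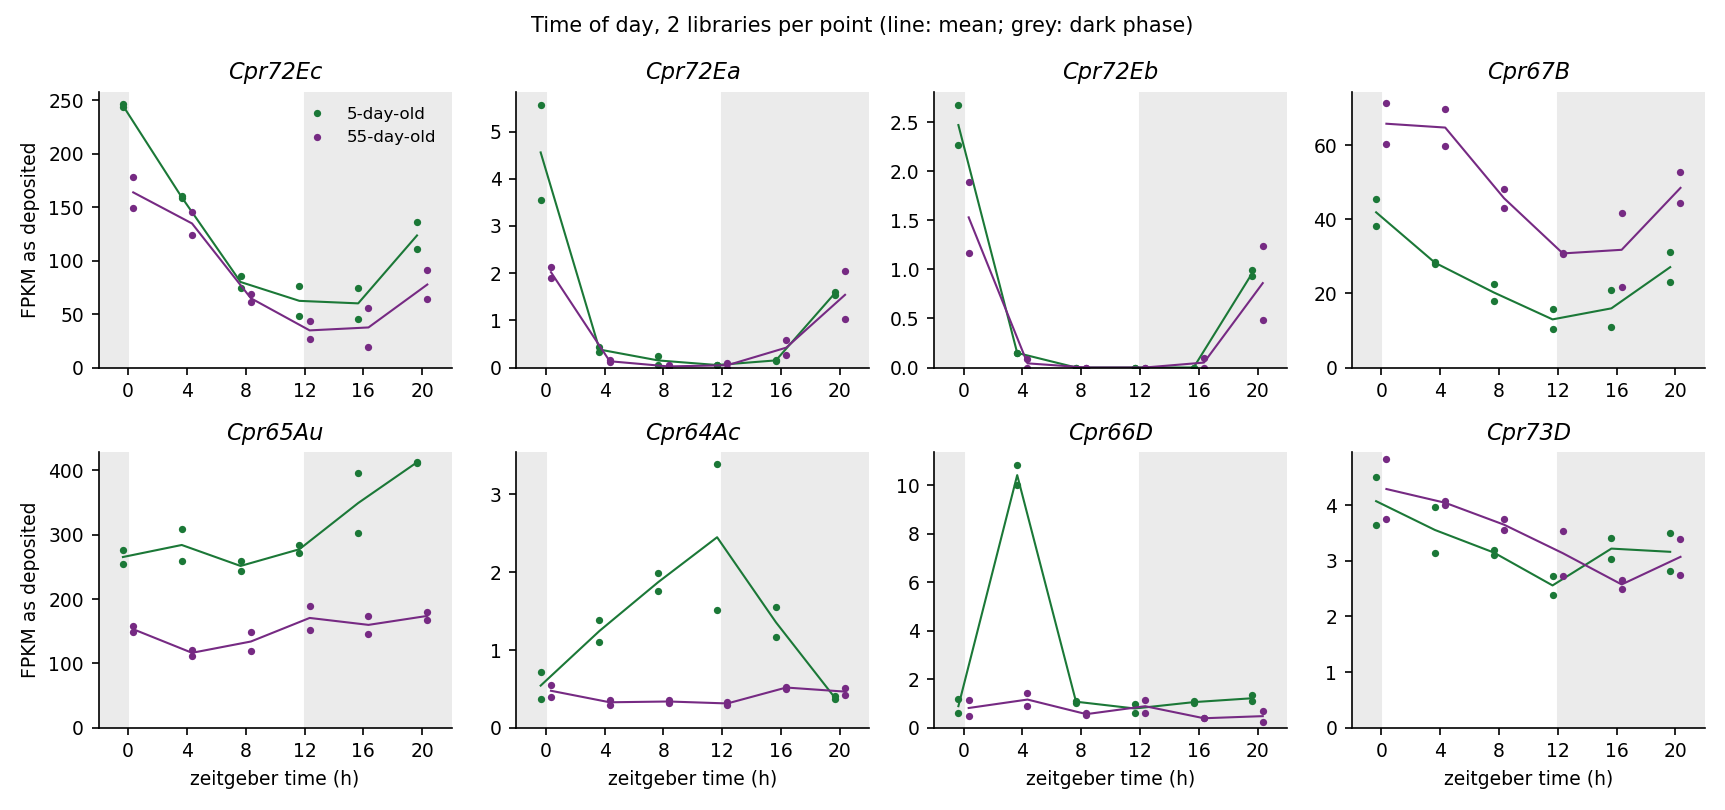
FPKM as deposited, not scaled, against zeitgeber time for 8 cuticle protein genes in young (green) and old (purple) heads; points are the 2 libraries per time point, lines join their means and grey marks the dark phase. Cpr72Ec, Cpr72Ea, Cpr72Eb and Cpr67B are highest at ZT0 at both ages, Cpr64Ac varies in young heads and stays between 0.295 and 0.556 FPKM in old heads, and Cpr66D reaches 10.8 and 10.01 FPKM at ZT4 in young heads.

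Cpr49Ag, one of the genes with the largest fall, kept a high value at ZT0 in old heads. Its old ZT0 libraries had 18.3 and 32.2 FPKM and the other 10 lay between 7.54 and 12.9 FPKM, while in young heads the ZT0 libraries had 72.1 and 69.6 FPKM and the highest of the others 61.5 FPKM. The 24 h terms did not call it in old heads (adjusted p = 0.0557), time of day as a factor did (adjusted p = 0.00388), and that variation was not shown to differ between ages (adjusted p = 0.466).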

How the data were processed

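RNA from heads was sequenced as paired reads from a poly(A)-selected, strand-marking library. Per the labels and the study's methods, reads were aligned with TopHat2 to the BDGP6 (dm6) assembly and the authors computed FPKM per gene with Cuffdiff. The deposited FPKM values stand in one table per age, with rhythm statistics of the authors that were not used. Columns are named by hour, so that age and time of day are known and which replicate a column holds is not. The 237 miRNA hairpin genes were left out.

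Read totals are not given. The FPKM worth of 1 fragment in low genes, whole within 10% for 76% of 3764 genes, gave relative depths of 0.801 to 1.21 (mean 1.01 in young, 0.989 in old libraries). Fragment sums cover counting error only.

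Over all genes tested, deposited FPKM was higher in old heads by a median log2 of 0.22, and a scale of the tables cannot be told apart from a change of RNA composition. FPKM was divided by median-ratio factors over 24 libraries, and log2(FPKM + 1) was fitted with limma 3.58.1 (R 4.3.3, eBayes with trend). Age was tested over all times, and rhythm with 24 h cosine and sine terms per age in one model, with Benjamini-Hochberg adjustment over all genes tested. On simulated data with 200 genes changed by a log2 size of 1, the age test recovered 194 and called 3 others of 9808. Recovery of genes that vary with time of day was not tested. For Cpr72Ec the SE of the age change was 0.33, and 0.14 with time of day as a factor. Named genes are those lost or gained, called in a test, or among the 10 highest means. Other genes, such as Cpr51A, were named after their values had been seen. The members and lists were chosen with earlier results of these data known. Alternatives were another pseudocount (0.1), no scaling, other filters and thresholds, time of day as a factor, no trend, a replicate block, and leaving out libraries.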

Additional observations from a re-analysis of the deposited data

Results flagged for a closer look

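The change of daily rhythm of Cpr64Ac between young and old heads was the one result set apart, because the test of the difference between ages itself was called (limma interaction of age with the 24 h terms, adjusted p = 0.00363 over 9612 genes). The fitted log2 amplitude was 0.69 at 5 days and 0.09 at 55 days, and the gene's median fell from 1.28 to 0.380 FPKM. Cpr64Ac thus entered the rhythm test only through its median in young heads. On log2(FPKM + 1) a given relative rhythm gives a smaller amplitude at a lower level. With a pseudocount of 0.1 in place of 1 the difference was called as well. What lies behind it was not tested.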

How the results depend on the processing

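The count of members lower in old heads was 12, and 8 to 14 under the alternatives other than dropping the filter. With no filter on low FPKM it was 21, and the members rhythmic in young and old heads were 8 and 7 in place of 4 and 4, because 80 members entered that fit. With a threshold of 2 FPKM 2 genes were lost in place of 4. Without either cycle, which removes a library from each time point, 9 members were lower and 0 to 1 higher, 0 to 1 were rhythmic in young and 0 in old heads, and no change of rhythm was called (0). The calls of lower level lost were Cpr97Eb and Lcp65Ac without either cycle, Cpr64Ac without the first and Cpr62Bb without the second. Without a single library 12 were lower and 2 higher, 3 to 5 were rhythmic in young and 2 to 5 in old heads, and the 2 followed from leaving out old ZT4 of the first or old ZT16 of the second cycle. Libraries of the same cycle did not deviate together (correlations from -0.32 to 0.33 over 66 pairs of groups, median -0.02). With the cycle as a replicate block 12 members were lower, 2 higher, 4 and 4 rhythmic and 1 changed its rhythm, and the block changed no call count of members. No age change of a called member reversed when a single library was left out or the scaling was dropped. Among genes not called, the sign could change with the scaling. Cpr73D had a scaled log2 change of -0.12, and its deposited means were 3.28 FPKM in young and 3.46 FPKM in old heads. The marker ninaE had -0.16 with and 0.07 without scaling. Genes of few fragments limit what can be said of the low members.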
